A study of Mus musculus with 12 samples.

Results

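The microRNAs (miRNAs) of the cluster formed by miR-183, miR-96 and miR-182 were described in the retina and the sclera of mice with form-deprivation myopia. Every mouse miRNA name on the array that starts with mmu-miR-183-, mmu-miR-96- or mmu-miR-182- was taken, whatever its signal. This gave 4 of the 696 names, mmu-miR-183-5p, mmu-miR-183-3p, mmu-miR-96-5p and mmu-miR-182-5p. The 3p arms of miR-96 and miR-182 were not analysed here. The mice were C57BL/6J. A diffuser, which blurs the image on the retina, was fitted over the right eye on postnatal day 24 and worn for 10 days, and the untreated left eye of the same animals was the control. Tissue was taken on postnatal day 34, as whole retina or as sclera, the fibrous outer coat of the eye. Retina and sclera, each from control and from myopic eyes, made up 4 groups of 3 arrays. Each array was hybridized with RNA from a pool of 3 eyes according to the methods of the study, whereas the sample labels give a mouse number. Since control and deprived eyes came from the same animals, an effect of the diffuser on the other eye could not be seen.

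MiRNAs are short RNAs that lower the output of messenger RNAs with matching sites, which they find mainly through the seed, bases 2 to 8 of the mature strand. This cluster is made from a shared precursor transcript and is known from sensory cells, among them photoreceptors and inner ear hair cells. In the mouse retina its members are known to follow light and dark, as are miR-204 and miR-211. Each hairpin can release a strand from either arm, named 5p and 3p, and the 5p strands are the abundant ones in this cluster.

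The mature sequences are shown because the 5p strands differ little in the part that selects targets. They come from RefSeq (GRCm38.p6, minus strand of chromosome 6), run 5′ to 3′ and carry the seed in capitals.
miR-183-5p (chr6:30169711-30169732): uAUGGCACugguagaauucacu
miR-96-5p (chr6:30169506-30169528): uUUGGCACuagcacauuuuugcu
miR-182-5p (chr6:30165962-30165986): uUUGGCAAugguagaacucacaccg
miR-183-3p (chr6:30169672-30169693): gUGAAUUAccgaagggccauaa
No 2 members had the same bases 2 to 8. MiR-96-5p and miR-182-5p shared bases 2 to 7 (UUGGCA), and miR-183-5p and miR-96-5p shared bases 3 to 8 (UGGCAC). Over the first 22 bases, miR-183-5p and miR-182-5p were identical at 18 positions, and miR-183-5p and miR-96-5p at 13. MiR-183-3p, from the opposite arm, had a seed unlike the others. Of the 696 array names, 528 had a mature sequence in the same table, and none of them outside the cluster shared bases 2 to 7 with a member.

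The 3 hairpins lie within 3820 bases. The Mir96 and Mir183 hairpins (chr6:30169446-30169551 and chr6:30169668-30169737) are 116 bases apart, and Mir182 (chr6:30165918-30165992) follows on the minus strand after a gap of 3453 bases. All 3 fall within the span of the long noncoding RNA gene Mirc35hg (chr6:30158640-30174125). Exon and intron positions were not used here.

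On these arrays a miRNA is captured by short DNA probes that pair with its 3′ end, and the probe sequences show what was measured. The longest probe of each member was as follows, 5′ to 3′.
miR-183-5p probe: agtgaattctaccagtgcc
miR-96-5p probe: agcaaaaatgtgctagtgccaa
miR-182-5p probe: cggtgtgagttctacc
miR-183-3p probe: ttatggcccttcggt
The 5p members had 2 probes each and 10 spots per probe, and miR-183-3p had 4 probes with 5 spots each. The longest unbroken run of bases that a probe of 1 member could pair with in another member was 8, between the miR-183-5p probes and miR-182-5p. Pairing with mismatches was not scored, and these 2 strands were identical at 18 of 22 positions. The signals of the detected probes are added up to the total gene signal. Different miRNAs have different probes, so levels are compared between arrays and not between members.

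On each array 274 to 401 of the 696 names were detected, with the lowest number in control sclera 3 (the third array of the control sclera). Before normalization the 75th percentile of the signal, over the 246 miRNAs detected on all arrays, was 1024 to 1414 on the retina arrays and 436 to 803 on 5 of the sclera arrays. It was 276 on control sclera 3, which stood apart. Its values are therefore given with and without it below. Lists of miRNAs known from other tissues were checked too. Between control retina and control sclera, where 50.6% of miRNAs were called in either direction and 23% as lower in the retina, all 9 neuronal miRNAs tested were higher in the retina. All 5 mesenchymal and all 4 muscle miRNAs were lower, as were 7 of 8 epithelial ones and 1 of 2 of red blood cells. In the myopic eyes these counts were the same, with 26.4% of all miRNAs called lower. With each array scaled by its 75th percentile instead, 6 of the 8 epithelial and 3 of the 4 muscle miRNAs were called lower in the myopic eyes.

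The cluster was detected on every array, with a single exception among the 48 values. Total gene signals of miR-96-5p were 67002, 75449 and 102165 in the control retina and 85747, 107364 and 69906 in the myopic retina. Those of miR-183-5p were 32111, 33759 and 43926 in the control retina and 39776, 49892 and 30578 in the myopic retina. MiR-182-5p had 8201, 8035 and 10023 in the control retina and 9543, 12377 and 6987 in the myopic retina. For these 5p strands the ranges of both groups overlapped, and myopic retina 2 had the highest and myopic retina 3 or control retina 1 the lowest signal. MiR-183-3p had 422, 431 and 540 in the control and 495, 637 and 390 in the myopic retina, again with overlapping groups. No spot was saturated. All spots of both miR-96-5p probes and of 1 miR-183-5p probe on the 6 retina arrays carried the flag for a reading scaled up from the low-gain scan. So did all 10 spots of the other miR-183-5p probe on myopic retina 2, and on no other array.

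In the sclera the signals were far lower. For miR-96-5p, control sclera had 4008, 4967 and 193, and myopic sclera had 2544, 1286 and 2308. The signal of miR-183-5p was 2032, 2446 and 214 in control and 1264, 586 and 1196 in the myopic sclera. MiR-182-5p had 537, 593 and 51.4 in the control and 285, 153 and 280 in the myopic sclera. Control sclera 3 was the lowest and control sclera 1 and 2 were the highest for each of these miRNAs. MiR-183-3p had 21.3 and 25.4 on control sclera 1 and 2 and was not detected on control sclera 3. In the myopic sclera it had 10.6, 4.54 and 11.7.

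**Figure D1:**
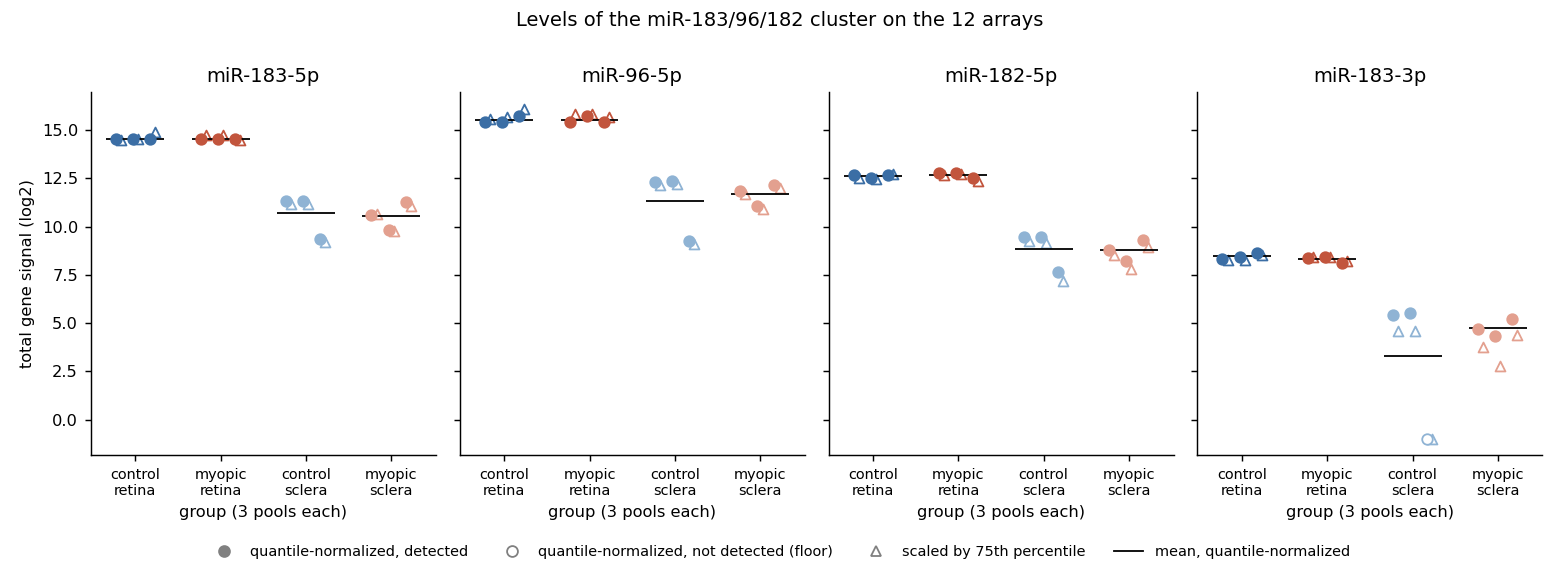
Level of each cluster member on the 12 arrays, as log2 of the total gene signal, for the 4 groups of 3 arrays. Circles are quantile-normalized values with their mean as a line, triangles are values scaled by the 75th percentile, and the open circle is the undetected value at -1, the floor on the log2 scale. Retina arrays lie above all sclera arrays for each member, and control sclera 3 lies lowest.

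To compare tissues, the signals were set to a minimum of 0.5, quantile normalized over the 12 arrays and transformed to log2. An undetected miRNA then stands at -1. Each miRNA was tested with limma in a fit of all 4 groups, and a call needed an adjusted p-value under 0.05 (Benjamini-Hochberg over 443 miRNAs) and a fold change of at least 2. On this scale miR-183-5p was 14.55 on all 6 retina arrays, because it held the same rank on each. Its control sclera values were 11.34, 11.34 and 9.38, and its myopic sclera values 10.62, 9.81 and 11.26.

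All 4 members were called higher in the control retina than in the control sclera, where 27.5% of the 443 miRNAs tested were called higher. MiR-183-5p was 14.6-fold higher (95% interval 6.47 to 32.9, log2 difference 3.87, limma adjusted p = 1.26e-04). MiR-96-5p was 18.6-fold higher (5.98 to 57.8, log2 difference 4.22, adjusted p = 6.42e-04). MiR-182-5p was 13.6-fold higher (6.66 to 27.8, log2 difference 3.76, adjusted p = 6.06e-05). The intervals of the 3 strands overlapped widely. In these bulk samples, fewer cells that express the cluster and less cluster RNA per cell cannot be told apart. MiR-183-3p had a log2 difference of 5.15 (95% interval 1.92 to 8.38, limma adjusted p = 0.0113), the size of which rests on the undetected value. In a fit of the control arrays alone miR-183-3p was not called (adjusted p = 0.0979). Without control sclera 3 the log2 differences came together at 3.21 for miR-183-5p, 3.20 for miR-96-5p, 3.16 for miR-182-5p and 2.99 for miR-183-3p. The corresponding adjusted p-values from limma were 5.05e-05, 1.82e-05, 1.15e-05 and 8.68e-06. Scaling each array by its 75th percentile gave 4.11, 4.64, 4.06 and 5.61 for these members. This scaling moved the median of the 246 miRNAs from -0.24 to 0.13.

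The same comparison in the deprived eyes used other arrays. All 4 members were called here as well, and the background was 32.5%. The log2 differences between myopic retina and myopic sclera were 3.99 for miR-183-5p (15.9-fold, 95% interval 7.03 to 35.8, limma adjusted p = 8.83e-05) and 3.83 for miR-96-5p (14.2-fold, 4.57 to 44.1, adjusted p = 0.00104). They were 3.92 for miR-182-5p (15.1-fold, 7.39 to 30.8, adjusted p = 4.03e-05) and 3.55 for miR-183-3p (11.8-fold, 1.25 to 110.5, adjusted p = 0.0498). In a fit of the myopic arrays alone its interval was 2.91 to 4.20 on the log2 scale (limma adjusted p = 9.42e-05). Its call was lost when the pool was fitted as a replicate block (adjusted p = 0.0623). With 75th percentile scaling the differences were 4.16, 4.27, 4.16 and 4.72, and the median of the 246 miRNAs moved from -0.32 to 0.39. Within each slide, which held 1 array of every group, the retina exceeded the sclera by 2.89 or more for each member in control and in myopic eyes. Every retina array lay above every sclera array for each member. Over all 443 miRNAs the tissues did not overlap, in either direction, for 58.9% in the control eyes and 78.6% in the myopic eyes.

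**Figure D2:**
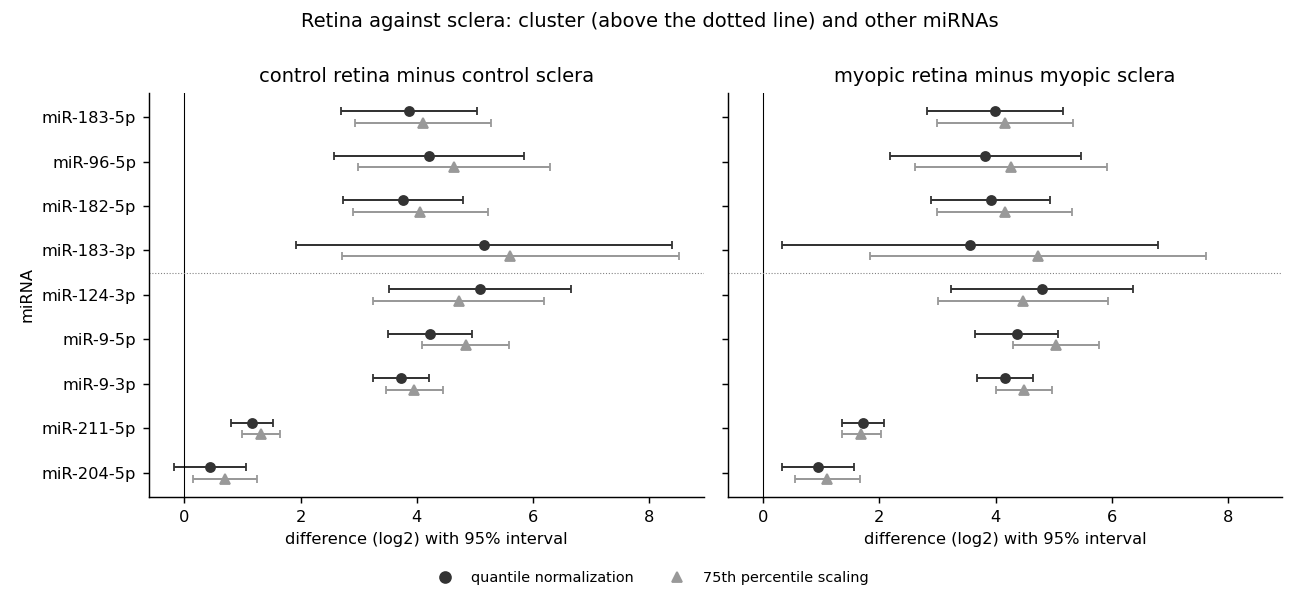
Difference between retina and sclera (log2, with 95% intervals from limma) in the control eyes and in the myopic eyes, for the cluster and for 5 other miRNAs. Circles are quantile-normalized and triangles 75th percentile-scaled values, and each interval of a cluster member lies above 0, with the lowest bound at 0.32 for miR-183-3p in the myopic eyes.

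Among the miRNAs detected on all 6 arrays of a comparison, the 5p members were near the top of the tissue differences. In the control eyes, with 249 such miRNAs, miR-96-5p ranked at 4, miR-183-5p at 5 and miR-182-5p at 6. In the myopic eyes, with 267, the ranks were 7 for miR-183-5p, 10 for miR-182-5p, 11 for miR-96-5p and 12 for miR-183-3p. The ranks are a description, since neighbours in this order lay within each other's intervals.

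The difference was also seen with each probe of the 5p members on its own. With 75th percentile scaling, the 2 miR-183-5p probes gave 4.21 and 4.07 between control retina and control sclera, and the 2 miR-96-5p probes gave 4.66 and 4.63. The miR-182-5p probes gave 4.31 and 4.01. Without control sclera 3 these values were 3.51 and 3.43 for miR-183-5p, 3.61 and 3.60 for miR-96-5p and 3.54 and 3.36 for miR-182-5p. In the retina the coefficient of variation over the spots of these probes was 1.5% to 8.96% on an array. Of the miR-183-3p probes, the shortest was at or below the floor on 10 of 12 arrays and carried no measurable level, and the longest gave 4.33, or 3.65 without control sclera 3.

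Signal ratios within an array need no normalization, and they show whether the members moved together. The ratio of miR-182-5p to miR-183-5p was 0.225 to 0.264 over the 12 arrays, although the signal of miR-183-5p ran from 214 to 49892. On control sclera 3 the miR-182-5p signal was that of its longest probe alone (51.4), without its other probe (3.29). The ratio of miR-96-5p to miR-183-5p was 1.93 to 2.33 on 11 arrays and 0.904 on control sclera 3. Thus, miR-96-5p was lower there than on the other arrays relative to miR-183-5p as well. The ratio of miR-183-3p to miR-183-5p was 0.0123 to 0.0131 in the retina and 0.00775 to 0.0105 on the 5 sclera arrays where it could be taken, so the tissues did not overlap. The number of probes in the miR-183-3p sum differed, however, with 3 in the retina and 1 or 2 in the sclera. On its longest probe alone the ratio was 0.00893 to 0.00949 in the retina. It was 0.00745 to 0.00835 on the same 5 sclera arrays, a smaller gap, still without overlap. The signal of this probe on those sclera arrays was only 4.54 to 19.4, with an error of 1.15 on the lowest value. These ratios are no ratios of molecules, because the probes differ. Neither the ratios nor the capture of 1 member by the probes of another was tested.

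**Figure D3:**
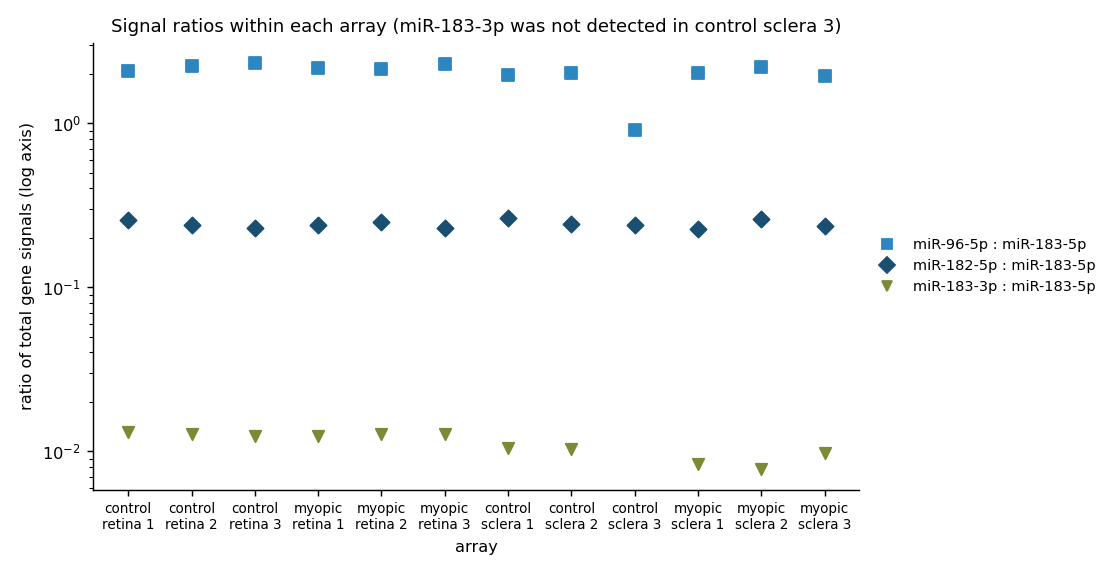
Ratio of the total gene signals of miR-96-5p, miR-182-5p and miR-183-3p to that of miR-183-5p on each of the 12 arrays (log axis). The miR-183-3p signal sums fewer probes in the sclera than in the retina. The miR-182-5p ratio stays at 0.225 to 0.264, and the miR-96-5p ratio drops to 0.904 on control sclera 3 only.

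The main question of the study was whether form deprivation changes miRNA expression. In the retina no member was called, where the background was 0.226% (1 of 443). Before adjustment, 130 of the 443 miRNAs had a limma p-value under 0.05 in the retina, and none of them was a member. Myopic minus control retina (log2) was 0.00 for miR-183-5p and for miR-96-5p, 0.07 for miR-182-5p and -0.15 for miR-183-3p (limma adjusted p = 1 for each). In a fit of the 6 retina arrays alone, the 95% intervals were -0.35 to 0.35 for miR-96-5p and -0.16 to 0.31 for miR-182-5p. For miR-183-3p the interval was -0.48 to 0.18. For miR-183-5p the quantile-normalized values were all equal and give no measured spread, and with 75th percentile scaling its interval was -0.35 to 0.37 around 0.01. Under that scaling the differences of the other members rounded to 0.00, and the widest interval, of miR-96-5p, was -0.42 to 0.42. A change of 2-fold, which is 1 on the log2 scale, lies outside these intervals. This depends on the fit, since the fit of all 4 groups shares its spread with the sclera. Its intervals were wider and reached 2-fold for each member. With processed spot signals miR-183-3p was at -0.76 (limma adjusted p = 0.236), where the median of the 246 miRNAs was -0.39.

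The pairs of pools varied in direction. On the 75th percentile scale, miR-183-5p differed by 0.23, 0.19 and -0.39 between the myopic and the control retina of pools 1, 2 and 3. MiR-96-5p differed by 0.28, 0.13 and -0.42, and miR-182-5p by 0.14, 0.25 and -0.39. MiR-183-3p differed by 0.16, 0.19 and -0.34. Each member was thus higher in the myopic retina in pools 1 and 2 and lower in pool 3. Over the 246 miRNAs the median change was -0.21 after quantile normalization and -0.02 after the other scaling. The myopic and control arrays overlapped for each member, whereas they did not overlap for 14.4% of all miRNAs.

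Markers of neighbouring tissue differed between the control retina arrays. The summed normalized signal of 5 mesenchymal miRNAs was 68.9 to 420.1 in the control and 64.5 to 88.3 in the myopic retina, and miR-214-3p was not detected in either. For 8 miRNAs of surface and lens epithelium the sum was 76.2 to 3608 in the control and 415 to 478 in the myopic retina. Most of it was miR-184-3p, with log2 levels of 5.87, 10.24 and 11.80 in the control retina and at most 8.83 in the myopic retina. Of the other epithelial miRNAs, 3 were undetected on all control and 5 on all myopic retina arrays, and miR-429-3p was detected on 1 control and on all 3 myopic arrays. The neuronal sum was set mostly by miR-124-3p, which quantile normalization gave the same value on all 6 retina arrays, so it is not used here. The total gene signal of miR-124-3p ran from 87155 to 123784. Their part in the values of the cluster was not tested.

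**Figure D4:**
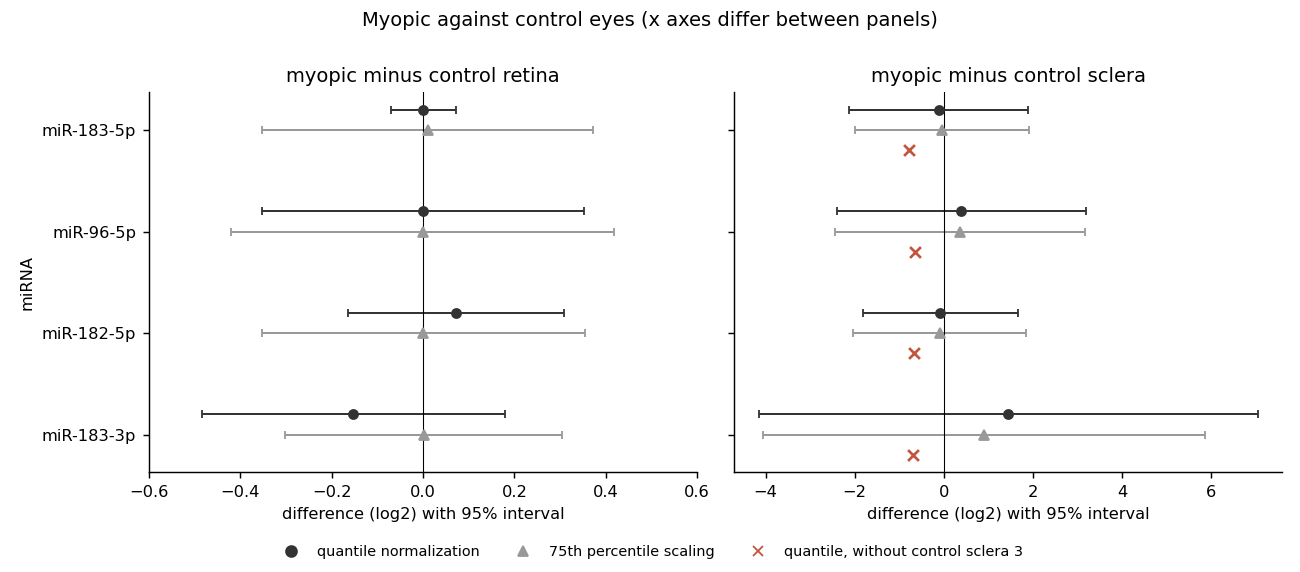
Difference between myopic and control eyes (log2, with 95% intervals from limma fits of the 6 arrays of a tissue) in the retina and in the sclera. Circles are quantile-normalized, triangles are 75th percentile-scaled, and crosses are fits without control sclera 3. The x axes differ, as the intervals reach at most 0.48 from 0 in the retina and 7.04 in the sclera.

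In the sclera no member was called either, and limma called 0% of the 443 miRNAs. Of all miRNAs, 13 had an unadjusted p-value under 0.05. None of them was a member, and the lowest p-value of a member was 0.34, for miR-183-3p. The methods' linear model without moderation called none. The control and myopic arrays overlapped for each member, whereas they did not overlap for 5.42% of all miRNAs. The log2 differences between myopic and control sclera were -0.12 for miR-183-5p, -0.08 for miR-182-5p, 0.39 for miR-96-5p and 1.44 for miR-183-3p. In a fit of the sclera arrays alone the 95% intervals were -2.13 to 1.89, -1.82 to 1.66, -2.41 to 3.18 and -4.15 to 7.04. Each interval of this fit includes a change of 2-fold in both directions. The width of the intervals depends on the fit, since the fit of all 4 groups shares its spread with the retina. Without control sclera 3, each member was lower in the myopic sclera, at -0.77, -0.68, -0.64 and -0.70, so that miR-96-5p and miR-183-3p turned direction. The adjusted p-values were then 0.741, 0.628, 0.755 and 0.628 (limma). In pools 1 and 2 each member was lower in the myopic sclera, and in pool 3 each was higher.

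The change in the retina was compared with the change in the sclera by an interaction term. No member was called, and the background was 0.226%. The difference was 0.12 for miR-183-5p (95% interval -1.54 to 1.78, limma adjusted p = 0.923) and 0.15 for miR-182-5p (-1.31 to 1.61, adjusted p = 0.882). For miR-96-5p it was -0.39 (-2.70 to 1.93, adjusted p = 0.805). For miR-183-3p it was -1.60 (-6.17 to 2.98, adjusted p = 0.603). Without control sclera 3 the last 2 values were 0.64 and 0.54.

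The low cluster signal in the sclera was set beside that of neuronal miRNAs. With 75th percentile scaling, miR-183-5p on control sclera 1, 2 and 3 was at 9.04%, 9.13% and 2.32% of its mean in the retina. On myopic sclera 1, 2 and 3 it was at 6.31%, 3.38% and 8.23%. MiR-124-3p, an abundant miRNA of neurons, was at 7.16%, 7.14% and 1.07% in the control and 5.56%, 2.81% and 5.85% in the myopic sclera. For both miRNAs control sclera 3 was the lowest and myopic sclera 2 the next lowest. MiR-9-5p had the same order, at 1.83% on control sclera 3 and 2.50% on myopic sclera 2. The order differed among the other neuronal miRNAs. MiR-218-5p was lowest on control sclera 3 (5.61%) and next lowest on myopic sclera 3 (13.1%). MiR-129-5p was not detected on control sclera 3 or on myopic sclera 2 and 3. MiR-128-3p was at 9.10% to 11.9% on the 6 sclera arrays and lowest on myopic sclera 3, where miR-129-2-3p was also lowest (0.603%). MiR-9-3p was lowest on myopic sclera 2 (3.37%). MiR-137-3p and miR-138-5p were detected on all retina arrays and on no sclera array. Their mean total gene signals in the control retina were only 138 and 216, and the lowest signal detected on a sclera array was 2.41 to 3.32, so a low share could not be told from none. The summed normalized signal of the 9 neuronal miRNAs, led by miR-124-3p, was 1450 to 7087 in the control and 2921 to 6055 in the myopic sclera. Their part in the sclera values was not tested.

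**Figure D5:**
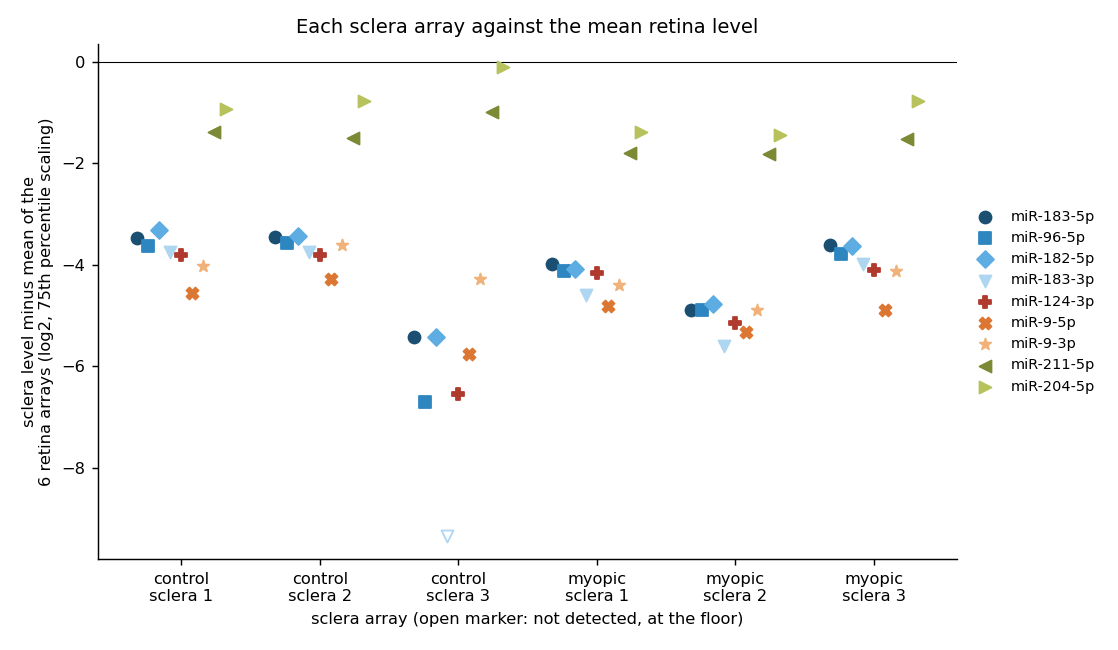
Level of each miRNA on the 6 sclera arrays minus its mean over the 6 retina arrays (log2, 75th percentile scaling). The cluster, miR-124-3p and both miR-9 strands lie at -3.32 or lower on every sclera array, whereas miR-204-5p and miR-211-5p lie between -0.11 and -1.83, and the open marker is the undetected miR-183-3p.

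The 3 miRNAs outside the cluster with the pattern most like the 5p members were miR-9-5p, miR-9-3p and miR-124-3p, of 243 miRNAs detected on all 12 arrays. Likeness was the root mean square difference from the mean of the 5p members after centring each profile. It was 0.39 for miR-9-5p, 0.48 for miR-9-3p and 0.56 for miR-124-3p (log2, 12 arrays), and the 5p members themselves were at 0.12 to 0.24. MiR-183-3p was at 1.12, owing to its undetected value. The level of miR-9-5p was 11.08 ± 0.19 (log2, SD, n = 3) in the control retina and 6.85 ± 0.71 in the control sclera, with a difference of 4.23 (limma adjusted p = 2.06e-06). MiR-124-3p had a difference of 5.09 (adjusted p = 1.36e-04). After 75th percentile scaling miR-124-3p came nearest of these 3, at 0.23.

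The other miRNAs of the retina known to follow light differed less between the tissues than the cluster. MiR-204-5p had total gene signals of 11449, 12740 and 16387 in the control retina and 4080, 5359 and 2935 in the control sclera. Its log2 difference of 0.45 was not called (95% interval -0.18 to 1.07, limma adjusted p = 0.188). MiR-211-5p was 1.16 higher in the control retina (0.80 to 1.52, adjusted p = 1.41e-04). Between myopic retina and myopic sclera the differences were 0.95 for miR-204-5p and 1.72 for miR-211-5p, and 1 of the 2 was called. With 75th percentile scaling they were 1.11 and 1.69, and both were called. Neither was called between myopic and control retina, at -0.14 and -0.03, or between myopic and control sclera, at -0.64 and -0.60. On control sclera 3, where the cluster was lowest, the normalized level of miR-204-5p was 13.42, the highest of the sclera arrays. Of the 9 neuronal miRNAs none was called with myopia in either tissue, with a median of 0.02 in the retina against -0.12 over all 443 miRNAs.

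The log2 values that the authors deposited for these arrays gave the same calls for the cluster. In them miR-183-5p was at 14.40 or 14.57 on the retina arrays, and the largest deviation of a cluster value from the values computed here was 0.35. The differences between myopic and control retina were 0.00 for miR-183-5p and miR-96-5p, 0.03 for miR-182-5p and -0.18 for miR-183-3p.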

How the data were processed

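The authors deposited the scanner output of 12 Agilent mouse miRNA arrays, in which values are fluorescence intensities without normalization between arrays. The background was subtracted by Feature Extraction (11.0.1.1 in the file headers), which gives the total gene signal of a miRNA and 0.1 to one without a detected probe. A table of log2 values was deposited as well (448 entries, 437 of them mouse miRNAs, median 5.74 on each array, Partek 6.6 per the submitters' processing notes). These had a correlation of 0.999 with the values computed here over these miRNAs and arrays, which sets their scale, and were used as an alternative. Absent and outlying features had been taken out of them, by a rule not given in the sources used here.

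Groups follow the labels. After the methods of the study, a floor of 0.5 was applied to the total gene signal before quantile normalization (696 names, 12 arrays) and log2 transformation. The 253 miRNAs without detection anywhere were dropped. For the other 443, lmFit and eBayes of limma 3.58.1 (R 4.3.3) were used with 8 residual degrees of freedom and Benjamini-Hochberg adjustment. The 5 comparisons were myopic against control in each tissue, retina against sclera in control and in myopic eyes, and the interaction. The fit was tested on simulated data. Python 3.11.15 with pandas 2.3.3, numpy 2.4.6 and matplotlib 3.10.9 read the files and drew the figures. Alternatives were other scalings, floors, filters, signals and models, a replicate block and the omission of each array. Intervals are 95%. The number of arrays limits the precision, and p-values measure the spread between pools.

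The miRNAs named are all cluster names, members of fixed lists and the 3 miRNAs most like the 5p members. Members and lists were chosen with earlier results of these data known. The labels give the same mouse number to 1 array of each group, and the arrays of a number also share a slide, so that pool and slide are the same block. Across the 246 miRNAs detected on all arrays, deviations from the group means correlated at 0.38, -0.46 and 0.59 in the retina pairs and at -0.14, -0.16 and -0.00 in the sclera pairs. Each group had the same position on every slide, so position and group cannot be told apart. No 2 arrays held identical values.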

Additional observations from a re-analysis of the deposited data

How the results depend on the processing

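No member passed both the p-value and the fold threshold with myopia in either tissue or in the interaction under any of the alternatives run, and 3 or 4 members were called between the tissues under each. The member not called was miR-183-3p (not tested where detection on all arrays was required). It lost its call between control retina and sclera in 2 settings (normexp and a fit of these groups alone) and between myopic retina and sclera in 13 settings, among them no filter on undetected miRNAs (adjusted p = 0.101) and the methods' linear model (0.0704). With normexp background correction its differences were 0.82 and 0.79, under 2-fold. Fitting the pool as a replicate block, its adjusted p-value was 0.0623, and no other call of a member changed.

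Differences near 0 changed sign. With 75th percentile scaling over all names, miR-182-5p was at -0.35 in the retina, miR-183-5p at 0.0381 in the sclera, and their interactions were -0.34 and -0.38. With processed spot signals these 4 values were -0.37, 0.0513, -0.36 and -0.41. The median of the 246 miRNAs under the first of these settings was -0.38 in the retina, 0.0289 in the sclera and -0.42 for the interaction. Under the second it was -0.39, 0.0507 and -0.46. With no normalization miR-183-3p was at 0.11 in the retina, and with normexp at -0.00985 in the sclera. With array weights miR-183-3p and miR-96-5p were at -0.66 and -0.74 in the sclera, with interactions of 0.58 and 0.82. Under these weights the interactions of miR-182-5p and miR-183-5p were 0.98 (adjusted p = 0.0394, under 2-fold) and 0.90 (0.121). A further setting, chosen after seeing the data, was 75th percentile scaling without control sclera 3. There miR-183-3p and miR-96-5p were at -0.98 and -0.67 in the sclera, with interactions of 0.98 and 0.67. The cause was not tested. Leaving out 1 array at a time, the sclera difference ranged from -0.77 to 0.25 for miR-183-5p, -0.68 to 0.22 for miR-182-5p, -0.64 to 0.92 for miR-96-5p and -0.70 to 2.57 for miR-183-3p. The interactions ranged from -0.25 to 0.77, -0.15 to 0.75, -0.92 to 0.64 and -2.72 to 0.54. Control sclera 3 set the lower limit of each sclera range and the upper limit of each interaction range. Differences between the tissues kept their direction throughout, and for miR-183-5p ranged from 3.16 to 5.35.

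Quantile normalization removes differences among the brightest miRNAs of the retina, since arrays with the same rank receive the same value. The sclera comparison is limited by 3 pools with unlike signal, and miR-183-3p in the sclera by its low signal. A fit of only the groups compared was not run for the interaction, which needs all 4 groups.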

Other observations

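MiR-96-5p and miR-124-3p were both low relative to miR-183-5p on control sclera 3. The ratio of miR-124-3p to miR-183-5p was 1.23 on this array, 1.89 to 2.35 on the other sclera arrays and 2.43 to 2.85 in the retina. MiR-182-5p and miR-183-5p kept their ratio there (0.240), with the miR-182-5p signal taken from its longest probe alone. On the same array miR-9-3p was at 5.12% of its mean in the retina, within the range of the other sclera arrays (3.37% to 8.21%), whereas miR-96-5p was at 0.952% against 3.36% to 8.41%.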
